A study of Mus musculus with 22 samples.

Results

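The axon growth and neuronal cytoskeleton genes described here are 38 named genes, taken by symbol from the 55376 genes counted in each library. They were not picked by a threshold on these data, but were chosen with earlier results of these data known. The 38 genes fall into 7 groups by role: growth cone membrane proteins (4 genes), stathmins (4), tubulins (7), collapsin response mediators (5), microtubule-associated proteins (8), intermediate filament proteins (5), and a last group of 3 kinesins with Rufy3 and Tmsb10 (5). They were measured by sequencing polyadenylated RNA of cells sorted from E12.5 mouse embryos (embryonic age in days), in a study whose title concerns the way in which motor neurons steer the remodelling of blood vessels. The groups were Plxnd1 knockout motor neurons (3 libraries), wild-type motor neurons (3), Plxnd1 knockout endothelial cells (3), wild-type endothelial cells (2 used), and, in a separate regional series of wild-type embryos, spinal cord endothelial cells (5) and meningeal endothelial cells (5). Motor neurons were sorted by an ISL1 reporter with GFP and endothelial cells by a Kdr reporter with Cherry. Plxnd1 encodes a receptor for semaphorins. The labels name the knockout only as such, and do not say whether it was in every cell or which exons were removed. Spinal cord and meninges were pooled from embryos of 1 genotype before sorting, in numbers the labels do not state, so a p-value reflects variation among these pools and not among embryos. The spinal libraries of batches 1 to 3 came from ventral cord and those of batches 4 and 5 from whole cord.

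A growing axon is built on bundles of microtubules, which are polymers of alpha and beta tubulin. Microtubule-associated proteins such as tau (Mapt) and doublecortin (Dcx) bind and stabilise them, stathmins bind free tubulin and favour disassembly, and kinesins walk along them with cargo. Collapsin response mediators, named for their part in the growth cone's response to semaphorins, bind tubulin, and membrane-bound proteins such as GAP-43 act on the actin-rich growth cone at the tip. Neurofilaments, alpha-internexin (Ina) and peripherin (Prph) are intermediate filament proteins of neurons. Several members, among them Map4, Tuba1b, Tuba1c, Stmn1, Marcks and Tmsb10, are widely expressed outside neurons.

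Total counts ran at 20680902 to 27035395 per library for the 11 analysed from the genotype comparison, and 15685784 to 21493255 for the 10 from the comparison of regions. All 38 members passed the filter on low counts in every comparison, and 37 had at least 10 counts in every library. The exception was Nefh, with 9 to 60 counts in the 5 knockout and wild-type endothelial libraries and 0 to 21 in meningeal ones. The library labelled wild-type endothelial cells, batch 2, was identical to knockout batch 1 at every gene. Its own header names the knockout library, so the copy under the wild-type label was left out and the other kept. With that knockout library left out too, no gene was called between the genotypes in endothelial cells (0 by edgeR). With it kept the count was also 0, so these counts cannot show whether the choice mattered. Plxnd1 was at 0.646 to 1.79 CPM (counts scaled to library size) in knockout and 5.14 to 12.1 CPM in wild-type motor neurons, and at 15.4 to 28.9 CPM in knockout and 175 to 213 CPM in wild-type endothelial cells. Sums of markers did not follow the sort labels in every respect. The 12 endothelial markers summed to 14.2 to 40.0 CPM in motor neurons and 629 to 1447 CPM in endothelial cells of the knockout series, but those endothelial libraries also held 14385 to 17164 CPM of 10 mesenchyme and cartilage markers. They held 8677 to 20714 CPM of 8 erythroid markers and 1144 to 1797 CPM of 8 pericyte markers as well. Sums of 8 macrophage markers were 697 to 946 CPM there, and those of 15 neuronal genes outside the list 446 to 1006 CPM. The motor neuron libraries held 924 to 2482 CPM of 12 motor neuron markers and 2086 to 3156 CPM of 12 spinal interneuron markers, Lhx1 and Slc17a6 among them. These sums run over different genes and do not give shares of cells. Knockout motor neuron batch 1 stood apart in 8 liver markers (729 CPM, against at most 2.92 CPM in the other libraries of the knockout series). Counts of members called are given without it as well for the cell types and for knockout motor neurons.

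Some beta tubulin members are close to identical in coding sequence, and tubulins are known to differ most in the tail at the end of the protein. The last 60 coding bases, stop codon included, which encode that tail, are therefore shown for the 4 beta tubulins. They are from GENCODE M21 (GRCm38), 5' to 3' on the coding strand. Capitals mark bases that do not match Tubb2a in an alignment of the whole coding sequences. Tubb2a (chr13:34074468-34074527) and Tubb2b (chr13:34127471-34127530) are on the minus strand, as is Tubb4a (chr17:57080690-57080749), and Tubb3 (chr8:123421623-123421682), the beta tubulin used as a marker of neurons, is on the plus strand.
Tubb2a: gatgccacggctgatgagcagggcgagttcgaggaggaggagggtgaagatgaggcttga
Tubb2b: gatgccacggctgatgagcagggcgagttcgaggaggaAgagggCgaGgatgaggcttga
Tubb3: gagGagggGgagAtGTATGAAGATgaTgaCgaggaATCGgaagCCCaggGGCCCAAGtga
Tubb4a: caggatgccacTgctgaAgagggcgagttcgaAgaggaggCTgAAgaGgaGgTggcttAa

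Over the whole coding sequence Tubb2b was 96.5% identical to Tubb2a, Tubb3 83.4% and Tubb4a 84.0%, and Tubb3 has 30 unmatched bases in the window. By a search of the annotated transcripts at 95% identity over at least 100 bases, 80.64% of the Tuba1a transcript, 91.11% of Tuba1b and 68.11% of Tuba1c had a match in another gene or a pseudogene, as had 83.79% of Tubb2a, 61.92% of Tubb2b, 64.98% of Stmn1 and 81.75% of Tmsb10. The levels of these genes are therefore uncertain, since reads that fit several places can be lost or divided. Exons of Tuba1a and Tuba1b also overlap a same-strand gene model, Gm49450, over 26.2% and 24.4% of their length. Tubb3 and Tubb4a had no such match.

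The first comparison set motor neurons against endothelial cells. In the knockout, 34 of the 38 members were higher in motor neurons at an adjusted p under 0.05, 2 were lower (Marcks and Tuba1b) and 2 did not pass (Tuba1c and Tmsb10). In wild type the counts were again 34, 2 and 2, and 34 higher and 2 lower members were shared by the genotypes. Of all 19266 genes tested, 33.5% were called higher and 35.3% lower in the knockout, and 31.0% higher and 33.8% lower in wild type. The median log2 fold change of the members was 2.98 in the knockout, against -0.02 over all genes tested, and 2.91 in wild type, against -0.02. In each genotype 35 members were higher in every motor neuron library than in every endothelial one, a pattern that 35.1% of all genes showed in the knockout and 38.4% in wild type, and 2 were lower in every one (37.2% of all genes in the knockout and 40.6% in wild type). Without knockout motor neuron batch 1 the counts were 34 higher and 2 lower in both genotypes. Together the members took 3.71 to 4.55% of all counts in knockout and 3.62 to 4.14% in wild-type motor neurons, against 0.597 to 0.859% in knockout and 0.562 to 0.861% in wild-type endothelial cells.

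**Figure D1:**
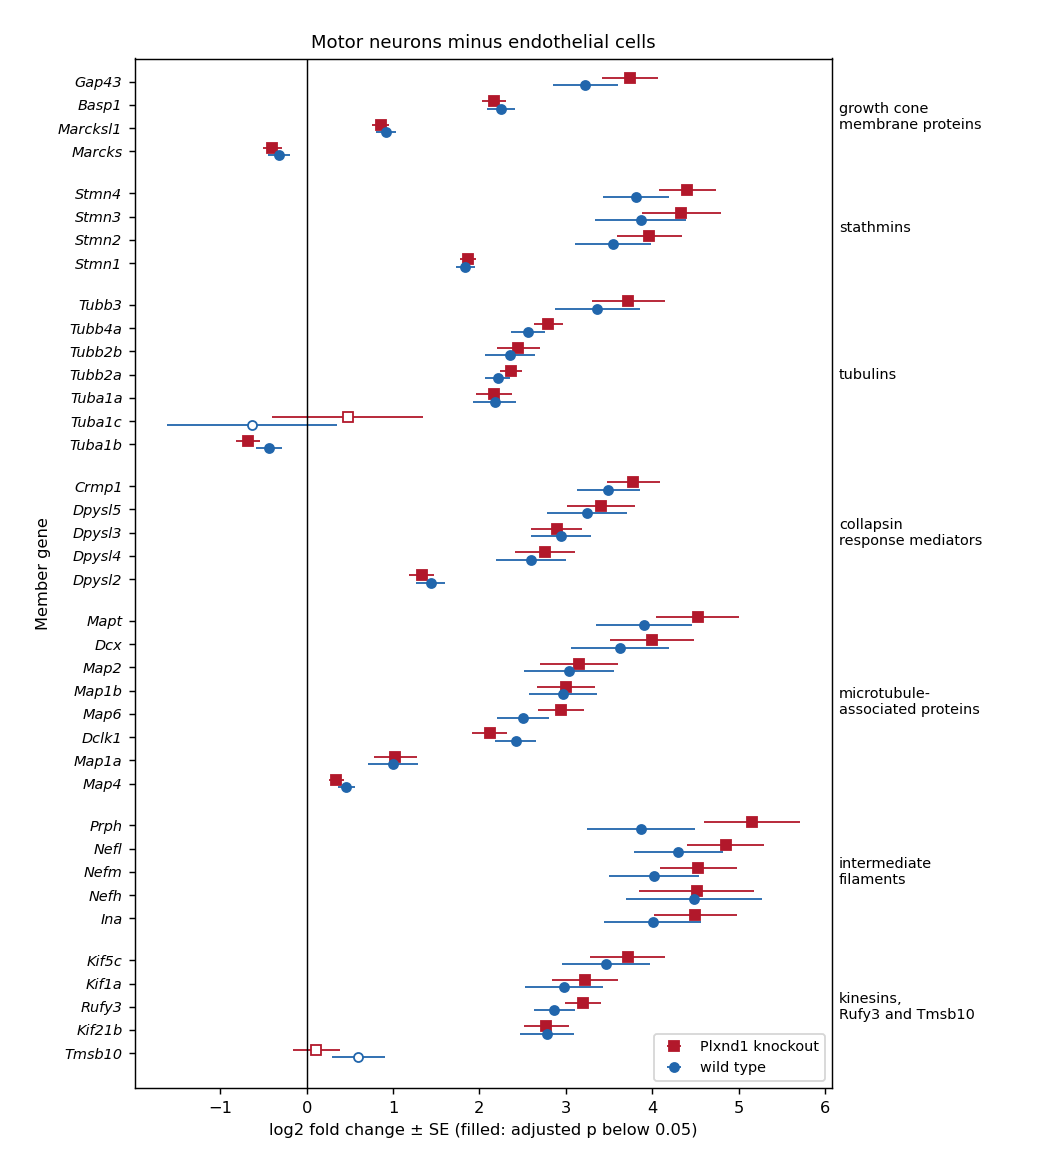
Log2 fold change of motor neurons over endothelial cells for each of the 38 members (rows, grouped by role), with its standard error, in Plxnd1 knockout (red squares) and wild type (blue circles). Filled symbols passed an adjusted p of 0.05. All intermediate filament genes lie above 3, while Marcks and Tuba1b lie below 0 in both genotypes and Tuba1c in wild type alone, as an open symbol.

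Among the growth cone membrane proteins, Gap43, which encodes the growth-associated protein GAP-43, was at 815, 1022 and 538 CPM in knockout and 702, 889.9 and 523 CPM in wild-type motor neurons, against 52.2, 48.9 and 76.5 CPM in knockout and 56.4 and 94.3 CPM in wild-type endothelial cells. Every motor neuron library was above every endothelial one, and batch 3 was the lowest motor neuron library in both genotypes. The log2 fold change was 3.74 ± 0.33 (SE; edgeR adjusted p = 2.7e-06) in the knockout and 3.23 ± 0.38 (SE; edgeR adjusted p = 2.8e-05) in wild type. Basp1, whose product also sits on the inner face of the growth cone membrane, was at 1126, 1261 and 1178 CPM in knockout and 1041, 1264 and 1147 CPM in wild-type motor neurons, against 255, 254 and 286 CPM in knockout and 202 and 281 CPM in wild-type endothelial cells. The groups did not overlap, and the change was 2.16 ± 0.14 in the knockout and 2.25 ± 0.16 in wild type. Marcks and Marcksl1 encode related membrane-bound substrates of protein kinase C and went opposite ways. Marcksl1 was higher in motor neurons (0.92 ± 0.12, SE; edgeR adjusted p = 5.0e-05 in wild type), whereas Marcks was lower, at 1076 ± 132 CPM in knockout and 1115 ± 89.4 CPM in wild-type motor neurons (SD, n = 3 each), against 1415 ± 39.4 CPM in knockout (n = 3) and 1392 ± 47.8 CPM in wild-type endothelial cells (n = 2). The Marcks difference was -0.40 ± 0.11 in the knockout, where it passed in all 11 fits that each left out 1 library, and -0.32 ± 0.13 in wild type (SE; edgeR adjusted p = 0.0442), where it passed in 3 of 11 (edgeR adjusted p 0.0285 to 0.155).

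All 4 stathmins were higher in motor neurons. Stmn2 (SCG10), a stathmin of neurons, was at 1280.2, 1583 and 1159.7 CPM in knockout and 1225, 1506 and 1130.2 CPM in wild-type motor neurons, against 67.8, 63.5 and 126 CPM in knockout and 63.6 and 156 CPM in wild-type endothelial cells. Both groups of motor neurons lay far above the endothelial ones, and endothelial batch 3 was the highest endothelial library of each genotype. The log2 fold change was 3.96 ± 0.38 in the knockout and 3.55 ± 0.44 (SE; edgeR adjusted p = 4.4e-05) in wild type, and without endothelial batch 3 of wild type it was 4.34 there. Stmn3 was at 362, 489 and 487 CPM in knockout and 511, 296 and 258 CPM in wild-type motor neurons, against 13.9, 13.9 and 38.6 CPM in knockout and 19.2 and 29.4 CPM in wild-type endothelial cells, with no overlap. Stmn4 was at 245, 301 and 169.5 CPM in knockout and 214, 235 and 179 CPM in wild-type motor neurons, against 8.87, 9.97 and 15 CPM in knockout and 9.74 and 20.03 CPM in wild-type endothelial cells, and its fold change was 4.41 ± 0.33 in the knockout and 3.81 ± 0.38 in wild type (4.42 without that library). Stmn1, a stathmin that dividing cells use as well, differed least, at 131, 149.6 and 156 CPM in knockout and 144, 155 and 148 CPM in wild-type motor neurons, against 39, 43.5 and 37.1 CPM in knockout and 38.9 and 44.4 CPM in wild-type endothelial cells. Its difference of 1.84 ± 0.11 (SE; edgeR adjusted p = 3.3e-07) in wild type had the smallest p of the 38 members.

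Of the 7 tubulins, 5 were higher in motor neurons, Tuba1b was lower and Tuba1c did not pass. Tubb3 was at 2262, 2973 and 2190.4 CPM in knockout and 2199, 2476 and 2171 CPM in wild-type motor neurons, against 137, 134 and 291 CPM in knockout and 115 and 329 CPM in wild-type endothelial cells. Its log2 fold change, 3.72 ± 0.42 in the knockout and 3.36 ± 0.49 (SE; edgeR adjusted p = 1.4e-04) in wild type, was the largest among tubulins. Without wild-type endothelial batch 3 it was 4.32 in wild type. Tubb2a was at 540.2, 644 and 479 CPM in knockout and 502, 551 and 478 CPM in wild-type motor neurons, against 114, 99.5 and 109.6 CPM in knockout and 101 and 119 CPM in wild-type endothelial cells. Tubb4a was at 570.2, 726 and 546 CPM in knockout and 529.8, 607 and 539.8 CPM in wild-type motor neurons, against 84.1, 78.5 and 103 CPM in knockout and 79.6 and 109 CPM in wild-type endothelial cells. Both beta tubulins were higher in every motor neuron library, by 2.21 ± 0.15 and 2.56 ± 0.20 in wild type, and Tubb2b by 2.36 ± 0.29. Tuba1a, the main alpha tubulin of developing neurons, was at 1153, 1418 and 1284 CPM in knockout and 1239, 1269 and 1231 CPM in wild-type motor neurons, against 223, 252 and 382 CPM in knockout and 223 and 328 CPM in wild-type endothelial cells, a difference of 2.17 ± 0.21 in the knockout and 2.18 ± 0.25 (SE; edgeR adjusted p = 2.4e-05) in wild type. Its close relative Tuba1b was at 32.5, 41.5 and 27.8 CPM in knockout and 36.2, 35.8 and 30.7 CPM in wild-type motor neurons, against 52, 53.8 and 57.4 CPM in knockout and 47.4 and 45.4 CPM in wild-type endothelial cells. Every motor neuron library was below every endothelial one, and the change was -0.68 ± 0.14 (SE; edgeR adjusted p = 0.0011) in the knockout and -0.44 ± 0.15 (SE; edgeR adjusted p = 0.0246) in wild type, with 8 of 11 wild-type fits passing when 1 library was left out. Tuba1c was at 43, 41.2 and 42 CPM in knockout and 1.72, 33.1 and 1.17 CPM in wild-type motor neurons, against 34.8, 29.9 and 26.1 CPM in knockout and 21 and 15.9 CPM in wild-type endothelial cells. Wild-type motor neuron batches 1 and 3 were near 0 while batch 2 was close to the knockout libraries. The difference was 0.47 ± 0.87 in the knockout (edgeR adjusted p = 0.644) and -0.63 ± 0.99 in wild type (edgeR adjusted p = 0.595). Without wild-type motor neuron batch 2, which enters the shared estimate of spread, it was called in opposite directions, at 0.48 in the knockout (edgeR adjusted p = 0.0214) and -3.66 in wild type (edgeR adjusted p = 2.2e-06).

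**Figure D2:**
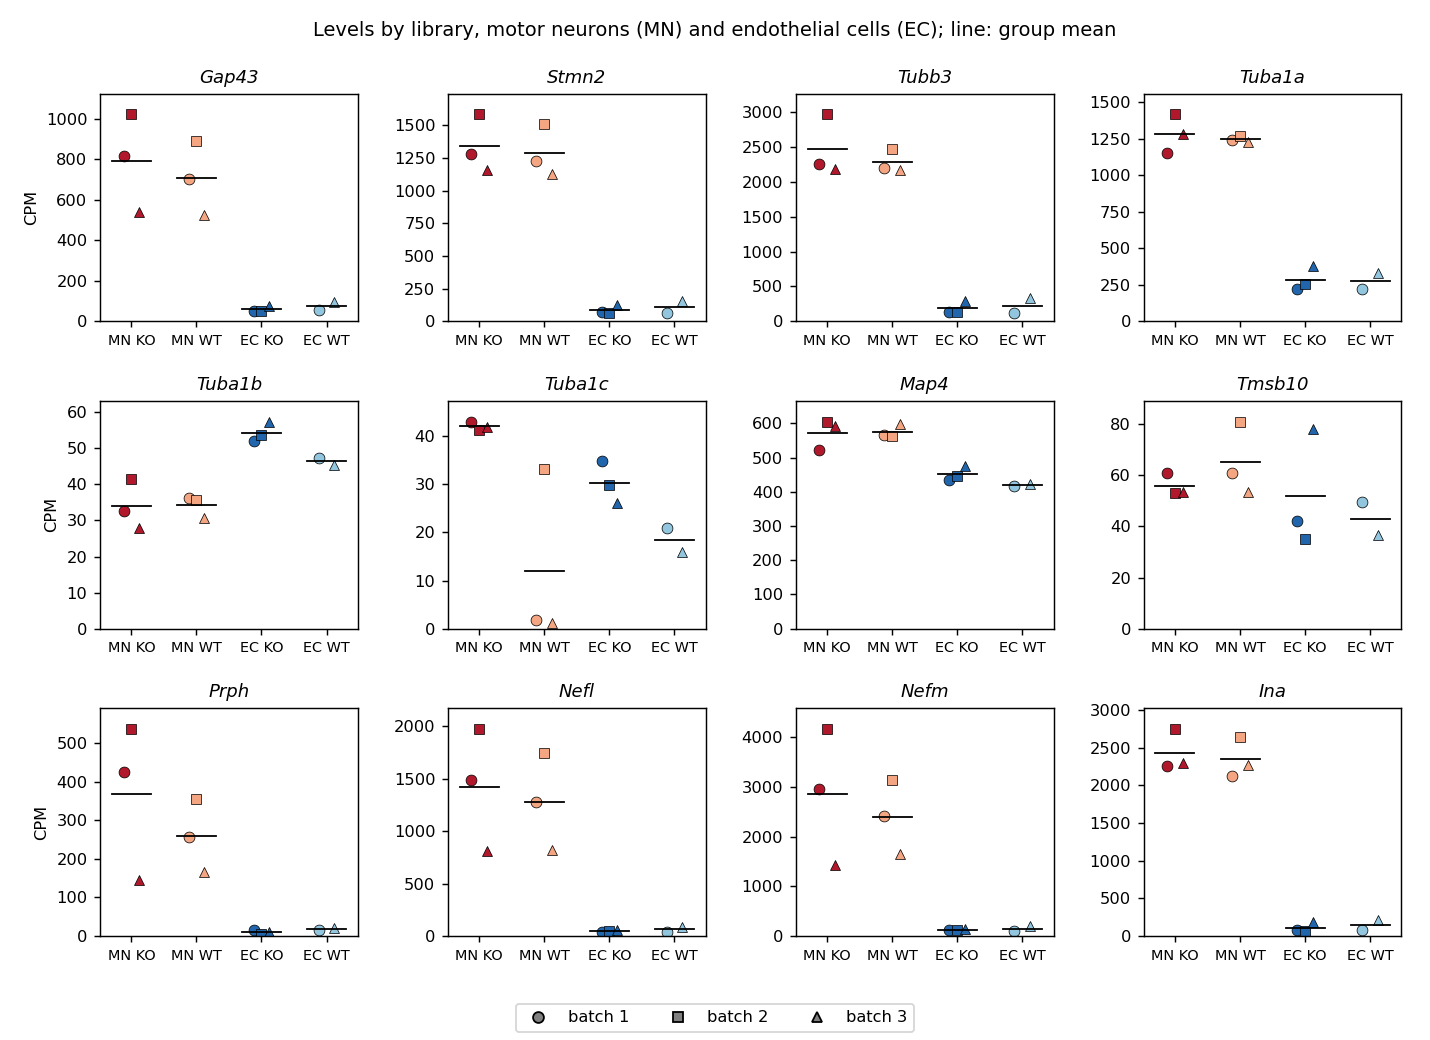
Level in CPM of 12 members in each library of Plxnd1 knockout (KO) and wild-type (WT) motor neurons (MN) and endothelial cells (EC). Each point is 1 library, its shape gives the batch and the line is the group mean. Prph, Nefl, Nefm and Gap43 are lowest in batch 3 of both motor neuron groups, and Tuba1c is near 0 in 2 of the 3 wild-type motor neuron libraries.

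The 5 collapsin response mediators were all higher in motor neurons, with log2 fold changes in wild type of 3.49 ± 0.36 for Crmp1, 3.25 ± 0.46 for Dpysl5, 2.94 ± 0.35 for Dpysl3, 2.60 ± 0.41 for Dpysl4 and 1.44 ± 0.17 for Dpysl2. Without wild-type endothelial batch 3, Dpysl5 was at 4.02 and Dpysl4 at 3.43. Crmp1 was at 2398, 2921 and 2204 CPM in knockout and 2274, 2689 and 2239 CPM in wild-type motor neurons, against 163, 123 and 261 CPM in knockout and 153 and 274 CPM in wild-type endothelial cells. No motor neuron library of Crmp1 came near an endothelial one, and the difference passed in both genotypes (edgeR adjusted p = 1.9e-06 in the knockout and 1.3e-05 in wild type). Dpysl2, the member first described as the collapsin response mediator CRMP2, differed least of the 5 and stood in endothelial cells at 39.7% of its motor neuron mean in the knockout and 36.9% in wild type.

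All 8 microtubule-associated proteins were higher in motor neurons, over a wide range. Mapt was higher by 4.52 ± 0.48 on the log2 scale in the knockout and 3.91 ± 0.56 in wild type, and Dcx, whose product stabilises microtubules in migrating neurons, by 4.0 ± 0.48 in the knockout and 3.62 ± 0.56 in wild type. Map2, a protein of dendrites and cell bodies, differed by 3.04 ± 0.52 in wild type and Map1b, of growing axons, by 2.97 ± 0.39. Without endothelial batch 3 of the same genotype, Mapt was at 5.13 in the knockout and 4.82 in wild type, Dcx at 4.66 in the knockout and 4.57 in wild type, and Map2 at 3.78 in the knockout and 3.87 in wild type. Map6, which makes microtubules resistant to cold, was at 418, 522 and 358 CPM in knockout and 353, 437 and 359.5 CPM in wild-type motor neurons, against 53.4, 37 and 78.1 CPM in knockout and 57 and 78.1 CPM in wild-type endothelial cells. The groups of Map6 did not overlap. Dclk1, a kinase related to doublecortin, was at 547, 623 and 650.4 CPM in knockout and 571, 621 and 631 CPM in wild-type motor neurons, against 103, 144 and 172 CPM in knockout and 89.9 and 137 CPM in wild-type endothelial cells, and its change was 2.42 ± 0.24 in wild type. Map1a, which is prominent in mature neurons, was at 124, 165 and 124 CPM in knockout and 122, 140.5 and 112 CPM in wild-type motor neurons, against 49.8, 55 and 98.4 CPM in knockout and 50.7 and 74.3 CPM in wild-type endothelial cells. Its groups did not overlap, but its difference in wild type, 1.0 ± 0.29 (SE; edgeR adjusted p = 0.0106), no longer passed without wild-type endothelial batch 1 (0.74, edgeR adjusted p = 0.11). Map4, a microtubule-associated protein widely expressed outside neurons as well, was at 523, 605 and 591 CPM in knockout and 567, 563 and 597 CPM in wild-type motor neurons, against 433, 447 and 475 CPM in knockout and 417 and 421 CPM in wild-type endothelial cells. It was called higher in motor neurons, but by only 0.34 ± 0.09 (SE; edgeR adjusted p = 0.0054) in the knockout and 0.46 ± 0.10 (SE; edgeR adjusted p = 0.0022) in wild type.

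The 5 intermediate filament genes had the highest median of the 7 groups, 4.53 in the knockout and 4.02 in wild type. Nefl, the light neurofilament subunit, was at 1489.6, 1975 and 809 CPM in knockout and 1279.7, 1744 and 823 CPM in wild-type motor neurons, against 41.1, 45.4 and 61.7 CPM in knockout and 42.1 and 87.7 CPM in wild-type endothelial cells. Prph, the filament of neurons that project out of the central nervous system, was at 425, 536 and 146 CPM in knockout and 255, 354 and 166 CPM in wild-type motor neurons, against 15.7, 5.94 and 9.42 CPM in knockout and 14.7 and 20.7 CPM in wild-type endothelial cells. Both were higher in every motor neuron library, and both were lowest in motor neuron batch 3. The log2 fold change of Nefl was 4.85 ± 0.44 in the knockout and 4.30 ± 0.52 (SE; edgeR adjusted p = 3.5e-05) in wild type, and that of Prph 5.15 ± 0.56 in the knockout and 3.87 ± 0.62 (SE; edgeR adjusted p = 2.8e-04) in wild type. Nefm (medium subunit) differed by 4.02 ± 0.52, Nefh (heavy subunit) by 4.49 ± 0.79 and Ina by 4.01 ± 0.56 in wild type. Without wild-type endothelial batch 3, the wild-type changes were 4.93 for Nefl, 4.67 for Nefm and 4.95 for Ina, and without knockout endothelial batch 3 the knockout changes were 5.81 for Nefh (4.51 with it) and 5.11 for Ina (4.50 with it). Exons of Nefl and Nefm overlap on opposite strands, over 32.8% of Nefl and 19.2% of Nefm, and those of Ina overlap Nt5c2 over 14.1%. The knockout series was counted without regard to strand, so reads from these stretches cannot be assigned to either gene.

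In the last group, the kinesins Kif5c, Kif1a and Kif21b and the axon polarity protein gene Rufy3 were higher in motor neurons and Tmsb10 did not pass. Rufy3 was at 757, 879.8 and 831 CPM in knockout and 778, 866 and 782 CPM in wild-type motor neurons, against 85.4, 72.2 and 111 CPM in knockout and 84.6 and 137 CPM in wild-type endothelial cells. Kif5c was at 996, 1324 and 1259 CPM in knockout and 1024, 1105 and 1115 CPM in wild-type motor neurons, against 62.7, 61.5 and 148 CPM in knockout and 52 and 144 CPM in wild-type endothelial cells. Kif1a, a carrier of synaptic vesicle precursors, was at 666, 855 and 653 CPM in knockout and 602, 657 and 612 CPM in wild-type motor neurons, against 56.7, 55.6 and 121 CPM in knockout and 44.2 and 114 CPM in wild-type endothelial cells. None of these 3 genes overlapped between cell types, and their wild-type differences were 2.87 ± 0.24, 3.46 ± 0.51 and 2.97 ± 0.45. Without wild-type endothelial batch 3, Kif5c was at 4.38 and Kif1a at 3.82. Tmsb10, thymosin beta 10, which binds actin monomers, was at 60.9, 53.2 and 53.5 CPM in knockout and 61, 81 and 53.5 CPM in wild-type motor neurons, against 42.2, 35.1 and 78.3 CPM in knockout and 49.6 and 36.5 CPM in wild-type endothelial cells. Knockout endothelial batch 3 lay above the motor neuron libraries of its genotype, the other endothelial libraries below them, and the difference was 0.11 ± 0.27 (SE; edgeR adjusted p = 0.738) in the knockout and 0.60 ± 0.31 (SE; edgeR adjusted p = 0.113) in wild type. Without knockout endothelial batch 3, Tmsb10 was called higher in both genotypes (0.53 in the knockout, edgeR adjusted p = 0.0348, and 0.59 in wild type, edgeR adjusted p = 0.0214).

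Per length of transcript (TPM), the order of the members differed between the cell types. Tubb3 stood first in motor neurons, at 4067 ± 851 TPM in the knockout and 3954 ± 259.9 TPM in wild type (SD, n = 3 each), before Tubb2b (2762 ± 483 TPM in the knockout and 2745 ± 89.4 TPM in wild type), Ina, Crmp1 and Tuba1a. Ina, Crmp1 and Tuba1a, at 2344 ± 237, 2296 ± 219 and 2238 ± 38.4 TPM in wild type, lay within their spread of each other. In endothelial cells of the knockout series Marcks stood first, at 1086 ± 61.2 TPM in the knockout (n = 3) and 1063 ± 81.7 TPM in wild type (n = 2). Marcksl1 stood second, within the spread of Marcks, at 1067 ± 85.6 TPM in the knockout and 1049 ± 175 TPM in wild type. Tubb2b and Tuba1a followed, at about the same level as each other. Nefh stood last in all 4 groups, at 21.4 ± 10.6 TPM in knockout and 19.3 ± 4.42 TPM in wild-type motor neurons, against 1.02 ± 1.11 TPM in knockout and 0.822 ± 0.219 TPM in wild-type endothelial cells.

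The members' levels in endothelial cells were compared with those of 15 neuronal genes outside the list (Elavl3, Snap25, Syt1 and others). The endothelial mean as a share of the motor neuron mean was 12.7% at the median of the members in the knockout (2.81 to 160%) and 13.4% in wild type (4.44 to 153%). For the 15 neuronal genes it was 8.43% in the knockout (4.60 to 25.2%) and 10.4% in wild type (5.54 to 23.0%). The 12 interneuron markers stood at 4.14% in the knockout and 5.24% in wild type at their median, and the 12 motor neuron markers at 2.14% in the knockout and 3.34% in wild type. The 7 dorsal root ganglion neuron markers stood at 190% in the knockout and 164% in wild type. Among members, Prph in the knockout (2.81%) and Nefh in wild type (4.44%) had the smallest shares. Members above 50% in both genotypes were Marcks, Marcksl1, Tuba1b, Tuba1c, Map4 and Tmsb10. The part that RNA of neurons has in the endothelial levels was not tested, and in bulk samples fewer cells of a type and less RNA per cell cannot be told apart.

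The batches differed in ways that several members followed in both genotypes. In motor neurons, batch 3 stood at 0.403 times the other batches at the median of the 12 motor neuron markers in the knockout and at 0.478 times in wild type, with all 12 lower in each, while 12 of the 12 interneuron markers were higher in the knockout and 11 in wild type. Of all genes above 10 CPM in motor neurons, batch 3 was the higher for 5417 of 9905 in the knockout and 5428 of 9850 in wild type. The intermediate filament genes stood at 0.400 times at their median in the knockout and 0.594 times in wild type, and all 5 were lower in both genotypes, Ina the least so (0.918 times in the knockout and 0.952 times in wild type). Prph was at 0.304 times in the knockout and 0.544 times in wild type, Nefl at 0.467 times in the knockout and 0.545 times in wild type and Gap43 at 0.586 times in the knockout and 0.657 times in wild type. Map2 went the other way, at 1.38 times in the knockout and 1.15 times in wild type, as did Kif21b, at 1.34 times in the knockout and 1.3 times in wild type. In endothelial cells, batch 3 held 35 of 38 members above the other batches in each genotype, by 1.61 times at the median in the knockout and 1.58 times in wild type, beside 15 of 15 neuronal genes (2.05 times in the knockout and 2.53 times in wild type). In wild type the only other library was batch 1. Of all genes above 10 CPM in endothelial cells, batch 3 was the higher for 5252 of 10759 in the knockout and 5414 of 10826 in wild type. Leaving out endothelial batch 3 of the same genotype raised the fold of motor neurons over endothelial cells by more than 1.5 times for 6 called members in the knockout and 13 in wild type, and leaving out any other library moved it that far for no called member. The median over all genes above 10 CPM was within 0.995 to 1.02 times in the 4 groups.

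Of 102 other cytoskeleton genes, all tested between the cell types, 72 were higher in motor neurons, 16 lower and 14 not called in the knockout, and 70 higher, 16 lower and 16 not called in wild type. Their median was 0.94 in the knockout and 0.98 in wild type, below that of the members. Among axonal adhesion molecules 9 of 11 were higher (median 2.89), among other motors and adaptors 18 of 21 (1.1), among other microtubule binders 16 of 20 (1.43), among other tubulins and tubulin-handling genes 15 of 20 (0.87) and among actin and growth cone genes 12 of 20 (0.72), all in wild type. Of 10 non-neuronal intermediate filament genes, none was higher and 7 were lower (median -2.19). Kif3c, a kinesin of neurons, was at 271 ± 18.3 CPM in knockout and 263 ± 15.2 CPM in wild-type motor neurons (SD, n = 3 each), against 75.8 ± 4.18 CPM in knockout (n = 3) and 72.9 ± 4.82 CPM in wild-type endothelial cells (n = 2), a wild-type difference of 1.85 ± 0.10 (SE; edgeR adjusted p = 1.7e-07). Camsap2, which binds microtubule minus ends, differed by 1.55 ± 0.09 and the contactin gene Cntn4 by 4.04 ± 0.30. The beta tubulin Tubb6 went the other way, at 5.54 ± 0.855 CPM in knockout and 4.98 ± 1.41 CPM in wild-type motor neurons, against 135 ± 26.9 CPM in knockout and 129 ± 37.7 CPM in wild-type endothelial cells (in wild type, -4.68 ± 0.27; edgeR adjusted p = 2.5e-07). The intermediate filament genes Nes and Vim, of progenitors and mesenchymal cells, were lower by the same test, at -2.09 ± 0.13 and -2.40 ± 0.16.

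Whether the cell type difference itself changed with the genotype was tested as an interaction in the same fit. None of the 38 members and none of the 19266 genes was called (0% in either direction), DESeq2 called no member and 1 other gene, and no member had an unadjusted p under 0.05. The median interaction of the members was 0.16 on the log2 scale, against 0.02 over all genes, and ranged from -0.27 to 0.65 when 1 library was left out. Prph had the smallest p, with an interaction of 1.29 ± 0.71 (SE; edgeR adjusted p = 1.0), followed by Stmn4 (0.59 ± 0.44) and Map6 (0.44 ± 0.37). Gap43 (0.51 ± 0.44), Rufy3 (0.33 ± 0.28), Tmsb10 (-0.49 ± 0.41), Tuba1b (-0.24 ± 0.20) and Dclk1 (-0.30 ± 0.29) came next. With wild-type motor neuron batch 2 left out, Tuba1c was called (4.14, edgeR adjusted p = 0.00164; 1.11 ± 1.32 with all libraries).

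The second comparison set Plxnd1 knockout against wild-type motor neurons. No member passed in either direction, and of 16695 genes tested 0% were called higher and 0.012% (2 genes) lower. No member had an unadjusted p under 0.05, against 190 of all genes, and DESeq2 called no member and 4 genes. The members' median was 0.07 on the log2 scale, against 0.00 over all genes. It ranged from -0.02 to 0.15 over the fits that left out 1 library. Without knockout batch 1, 0 members were called. With libraries paired by batch 6 genes were called, none of them a member (0.012% of genes higher and 0.024% lower).

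Tuba1a averaged 1285 ± 133 CPM in the knockout and 1246 ± 19.98 CPM in wild type (SD, n = 3 each), a log2 difference of 0.04 ± 0.11 (SE). Map4 differed by -0.01 ± 0.09, Stmn2 by 0.06 ± 0.16, Tubb3 by 0.12 ± 0.15, Gap43 by 0.17 ± 0.26 and Nefl by 0.15 ± 0.35. The 7 groups had medians between 0.00 (growth cone membrane proteins) and 0.24 (intermediate filaments). Prph averaged 369 ± 201 CPM in the knockout and 258 ± 94.4 CPM in wild type, and its difference of 0.51 ± 0.44 was smaller than the spread between batches. Within the batches, knockout over wild type, Prph was higher in batches 1 and 2 and lower in batch 3. Kif1a (0.22 ± 0.12), Tmsb10 (-0.22 ± 0.15), Stmn3 (0.33 ± 0.25), Map6 (0.17 ± 0.15), Kif5c (0.14 ± 0.13) and Map1a (0.14 ± 0.13) had the smallest p after Tuba1c and did not pass. The motor neuron markers themselves were above 0 in 12 of 12 genes, with a median of 0.20 and none called.

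Tuba1c was the member with the largest difference, 1.82 ± 1.01 (SE; edgeR adjusted p = 1.0), and the only one whose knockout libraries all lay above the wild-type ones, which 2.38% of all genes did. No member lay below without overlap (2.48% of all genes). The 3 knockout libraries were at 43, 41.2 and 42 CPM and the wild-type ones at 1.72, 33.1 and 1.17 CPM. Wild-type batch 2 lay below the knockout libraries but far above wild-type batches 1 and 3, where 42 and 28 counts were found. Without wild-type batch 2 the difference was 4.86 (edgeR adjusted p = 0.000492), the only call among members in the fits that left out 1 library, and paired by batch it was 2.72 ± 0.70 (SE; edgeR adjusted p = 0.427). By comparison Tuba1b was at 32.5, 41.5 and 27.8 CPM in the knockout and 36.2, 35.8 and 30.7 CPM in wild type.

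The third comparison set Plxnd1 knockout against wild-type endothelial cells, with 3 libraries against 2. The main fit did not call even Plxnd1, at 15.4 to 28.9 CPM in knockout and 175 to 213 CPM in wild type. A gene not called here could therefore still differ by a large fold. No member and none of 18209 genes was called (0% in either direction); 1 member, Tuba1c, and 431 genes had an unadjusted p under 0.05, and DESeq2 called 34 genes and no member. The members' median was -0.06, against -0.01 over all genes, and ranged from -0.41, without knockout batch 3 and likewise without wild-type batch 1, to 0.37 without wild-type batch 3. The 15 neuronal genes outside the list had a median of -0.22. Batch 3 was the highest in neuronal genes in both genotypes, and the knockout had one library, batch 2, with no partner. With libraries paired by batch the members' median was 0.08. Within batch 1 the median difference of the members was 0.09, with 30 of 38 above 0, and within batch 3 it was 0.01, with 19 of 38 above 0. The median of the 15 neuronal genes differed in sign between these batches. It was 0.27 within batch 1, with 12 of 15 above 0, and -0.13 within batch 3, with 4 of 15 above 0.

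Tuba1c was at 34.8, 29.9 and 26.1 CPM in knockout and 21 and 15.9 CPM in wild-type endothelial cells. Every knockout library was above every wild-type one, and the log2 difference was 0.72 ± 0.19 (SE; edgeR adjusted p = 0.999). Paired by batch, it was 0.73 ± 0.12 (SE; edgeR adjusted p = 0.0017) and Tuba1c was the one member called, in a fit with 1 residual degree of freedom that called 0.763% of all genes higher and 0.225% lower. Tuba1b, at 52, 53.8 and 57.4 CPM in the knockout and 47.4 and 45.4 CPM in wild type, and Map4, at 433, 447 and 475 CPM in the knockout and 417 and 421 CPM in wild type, also did not overlap, with differences of 0.23 ± 0.10 and 0.11 ± 0.10 that did not pass. Of all genes, 5.88% lay above without overlap and 7.96% below. Prph (-0.77 ± 0.39), Gap43 (-0.34 ± 0.27), Nefl (-0.39 ± 0.32), Rufy3 (-0.31 ± 0.25) and Stmn2 (-0.35 ± 0.43) had negative differences, Dclk1 (0.31 ± 0.26) and Tmsb10 (0.27 ± 0.35) positive ones, and Tuba1a (0.06 ± 0.27) and Tubb3 (-0.24 ± 0.50) had standard errors larger than their differences. None of these passed. Of the other cytoskeleton genes none was called in either cell type, of 97 tested in motor neurons and 101 in endothelial cells.

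**Figure D3:**
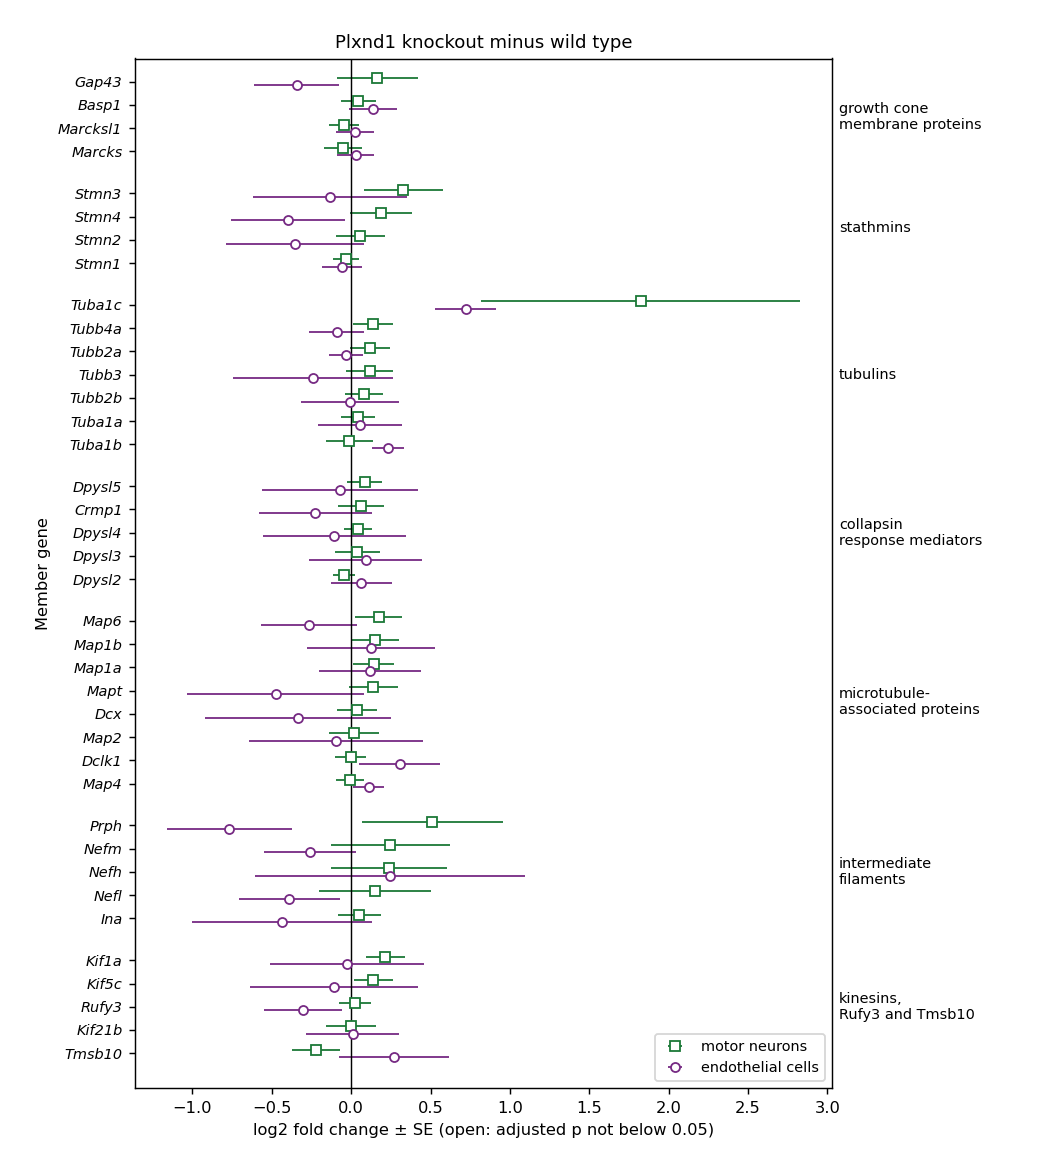
Log2 fold change of Plxnd1 knockout over wild type for each of the 38 members, with its standard error, in motor neurons (green squares) and endothelial cells (purple circles). All symbols are open because no member passed an adjusted p of 0.05; most lie within 0.5 of 0, and Tuba1c lies highest in both cell types.

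The fourth comparison set endothelial cells of the spinal cord against those of the meninges. Of the 38 members, 29 were higher in spinal libraries, 3 were lower (Tuba1b, Tmsb10 and Map1a) and 6 did not pass (Tuba1a, Prph, Tuba1c, Stmn1, Marcksl1 and Map4). Over all 16213 genes tested, 24.8% were called higher and 23.0% lower. The members' median log2 fold change was 1.32, against 0.01 over all genes, and 23 members lay above in every spinal library and 2 below (19.2% and 17.4% of all genes). In the ventral batches alone, 22 members were higher and 4 lower, with a median of 1.08, where 21% of all genes were higher and 22.1% lower. In the whole-cord batches 30 were higher and 2 lower, with a median of 1.46, where 27.3% of all genes were higher and 26.6% lower. Of the higher members, Gap43, Basp1, Dpysl2, Map1b, Nefl, Nefm and Nefh did not pass in the ventral batches alone (edgeR adjusted p 0.0693 to 0.317). Map1a, lower over all batches, did not pass there either (edgeR adjusted p = 0.0983). The dissection went with the batch number, so dissection and batch cannot be told apart. Markers of several other cells moved with the members, and others went the opposite way. All 15 neuronal genes outside the list were higher in spinal libraries (median 3.0), with a sum of 900.1 to 1504 CPM in spinal libraries, against 209 to 347 CPM in meningeal libraries, and none was at 0 in either. All 12 interneuron markers were higher as well, at a sum of 98.2 to 245 CPM in spinal libraries, against 3.79 to 9.70 CPM in meningeal libraries, while mesenchyme markers summed to 1337 to 2764 CPM in spinal libraries, against 14246 to 20366 CPM in meningeal libraries. Of 10 neural progenitor markers 9 were higher in spinal libraries, and so were 9 of the 12 endothelial markers. The 8 pericyte markers summed to 3623 to 9082 CPM in spinal libraries, against 1383 to 1839 CPM in meningeal libraries (6 higher and 2 lower). The 8 Schwann cell and neural crest markers summed to 480 to 885 CPM in spinal libraries, against 174 to 248 CPM in meningeal libraries, although 5 of them were lower and 1 higher. At their median the meningeal mean was 288% of the spinal one, and Fabp7 of this list is also among the progenitor markers. The 7 dorsal root ganglion neuron markers measured summed to 32.9 to 52.6 CPM in spinal libraries, against 45.6 to 98.3 CPM in meningeal libraries, with 3 lower, 2 higher and a median of -1.11. Erythroid markers (8 genes) summed to 3950 to 43184 CPM in spinal libraries, against 6806 to 50319 CPM in meningeal libraries. Macrophage markers (8 genes) summed to 930 to 2765 CPM in spinal libraries, against 1220 to 2300 CPM in meningeal libraries. The part of other cells' RNA in the members' differences was not tested.

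**Figure D4:**
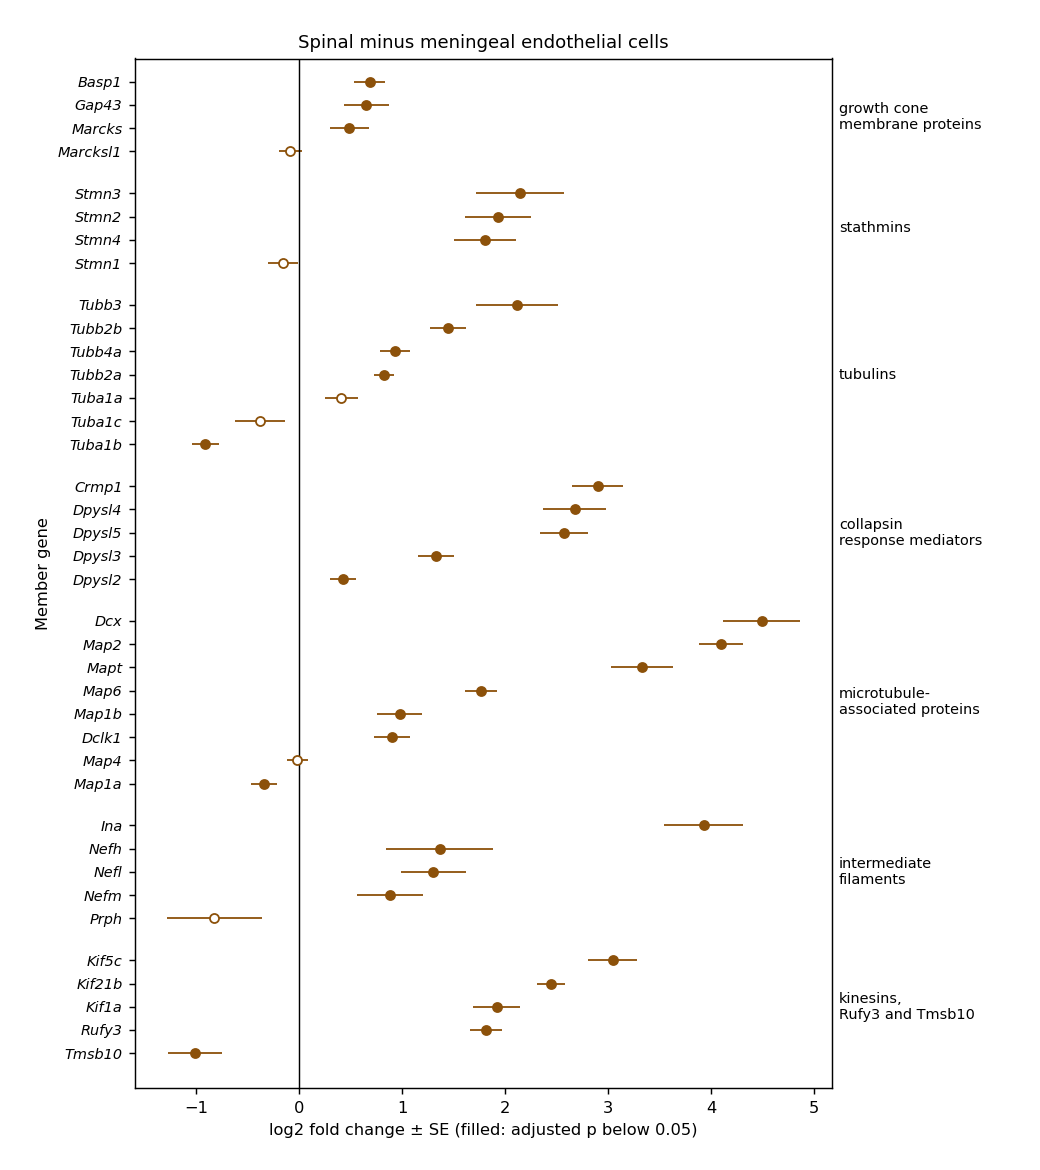
Log2 fold change of spinal over meningeal endothelial cells for each of the 38 members (rows, grouped by role), with its standard error. Filled symbols passed an adjusted p of 0.05. Dcx (4.49), Map2 (4.09) and Ina (3.93) lie highest, and Tmsb10, Tuba1b and Map1a are the filled symbols below 0.

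The microtubule-associated proteins spanned the widest range, with a median of 1.37. Map2 was at 442, 307, 676, 422 and 471 CPM in spinal libraries, against 24.9, 23.4, 35.8, 24 and 27.6 CPM in meningeal libraries. Dcx was at 349, 278, 616, 419 and 499.8 CPM in spinal libraries, against 20.4, 12.1, 38.6, 13 and 12.1 CPM in meningeal libraries. For both, the lowest spinal library was several times the highest meningeal one, and the log2 fold changes were 4.09 ± 0.22 (SE; edgeR adjusted p = 1.0e-07) for Map2 and 4.49 ± 0.37 (SE; edgeR adjusted p = 1.3e-06) for Dcx. Map6 was at 85.5, 65.9, 121, 88.8 and 87.3 CPM in spinal libraries, against 25.3, 21.2, 32, 26.4 and 27 CPM in meningeal libraries, without overlap, a change of 1.77 ± 0.16. Mapt was higher by 3.33 ± 0.30, Map1b by 0.98 ± 0.22 and Dclk1 by 0.90 ± 0.17. Map4 was at 400.0, 413, 425, 426 and 418 CPM in spinal libraries, against 348, 465, 435, 434 and 426 CPM in meningeal libraries. Its groups overlapped, with a difference of -0.02 ± 0.10 (SE; edgeR adjusted p = 0.898). Map1a was lower in spinal libraries, with a difference of -0.34 ± 0.13 (SE; edgeR adjusted p = 0.0448), and passed in 3 of 10 fits that left out 1 library and not when paired by batch (edgeR adjusted p = 0.0525).

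Of the kinesins and their group, Kif5c was at 175, 133, 299, 221 and 231 CPM in spinal libraries, against 27.4, 22.8, 38.2, 20.04 and 20.3 CPM in meningeal libraries. Kif21b was at 247, 244, 329.9, 348 and 305 CPM in spinal libraries, against 44.8, 51.8, 60.03, 59.8 and 54.7 CPM in meningeal libraries. Rufy3 was at 107, 95.9, 167, 132 and 141 CPM in spinal libraries, against 32.6, 38.8, 44.9, 34.3 and 32.4 CPM in meningeal libraries. All 3 were higher in every spinal library, by 3.04 ± 0.24, 2.44 ± 0.14 and 1.81 ± 0.16, and Kif1a by 1.92 ± 0.23. Tmsb10 went the other way, at 399, 514, 376, 677 and 633 CPM in spinal libraries, against 1045, 1806, 928, 718 and 737 CPM in meningeal libraries, with meningeal batch 2 the highest. Every spinal library of Tmsb10 was below every meningeal one, and the difference was -1.01 ± 0.27 (SE; edgeR adjusted p = 0.0074). It was larger in the ventral batches (-1.59 ± 0.28, edgeR adjusted p = 0.0025) than in the whole-cord ones (-0.17 ± 0.07, edgeR adjusted p = 0.0796), where it did not pass. The difference between these sets of batches was not tested, and the meningeal libraries differed between them as well. Per length, Tmsb10 stood first of the members in both groups, at 1087 ± 120.0 TPM in spinal and 1979 ± 821 TPM in meningeal libraries (SD, n = 5 each). In spinal libraries Tubb2b (1009 ± 330 TPM) and Tuba1a (1002 ± 161 TPM) lay within the spread of Tmsb10.

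All 5 collapsin response mediators were higher in spinal libraries, with a median of 2.57. Crmp1 was at 241, 223, 408, 396 and 377 CPM in spinal libraries, against 57.2, 28.8, 57.7, 41.9 and 34.9 CPM in meningeal libraries. Dpysl5 was at 169.9, 109, 258, 211 and 200.3 CPM in spinal libraries, against 34.4, 27.5, 45.7, 25 and 26.8 CPM in meningeal libraries. Neither overlapped, and the differences were 2.90 ± 0.25 and 2.57 ± 0.23. Dpysl4 (2.68 ± 0.30) and Dpysl3 (1.33 ± 0.17) were higher too, and Dpysl2 differed least (0.43 ± 0.13, SE; edgeR adjusted p = 0.015). The Dpysl2 call was lost without spinal batch 1 (edgeR adjusted p = 0.0565) and without meningeal batch 1 (0.0648). In the ventral batches alone it did not pass (0.32, edgeR adjusted p = 0.202). Of the stathmins, Stmn2 was at 117, 113, 216, 225 and 225 CPM in spinal libraries, against 64.1, 34.7, 76.6, 34.1 and 26.2 CPM in meningeal libraries, a difference of 1.93 ± 0.32 (SE; edgeR adjusted p = 3.0e-04) without overlap. Stmn3 (2.14 ± 0.43) and Stmn4 (1.80 ± 0.30) were higher, while Stmn1 was not called (-0.15 ± 0.15). Stmn1 differed in sign between the sets of batches, at -0.48 ± 0.17 in the ventral batches (edgeR adjusted p = 0.0462) and 0.26 ± 0.07 in the whole-cord ones (edgeR adjusted p = 0.009). Its spinal libraries were at 110, 120 and 151 CPM in batches 1 to 3 and 171 and 165 CPM in batches 4 and 5. Its meningeal libraries were at 183, 187 and 150 CPM in batches 1 to 3 and 143 and 135 CPM in batches 4 and 5.

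The tubulins divided by gene. Tubb3 was at 242, 183, 444, 478 and 429.7 CPM in spinal libraries, against 96, 47.4, 168, 49.8 and 48.3 CPM in meningeal libraries. Every spinal library was above the meningeal ones, with meningeal batch 3 the highest of its group, and the difference was 2.12 ± 0.40 (SE; edgeR adjusted p = 8.0e-04). Tubb2b (1.44 ± 0.18), Tubb4a (0.93 ± 0.15) and Tubb2a (0.83 ± 0.10) were higher too. Tuba1a was at 501, 541, 658, 777 and 866 CPM in spinal libraries, against 543, 457, 589.6, 442 and 482 CPM in meningeal libraries. Its groups overlapped and it did not pass (0.41 ± 0.16, SE; edgeR adjusted p = 0.0554), although it did in the whole-cord batches (0.81 ± 0.08, edgeR adjusted p = 5.8e-06) and with DESeq2 (adjusted p = 0.0344). Tuba1b was at 66.4, 77.2, 72.9, 96.8 and 105 CPM in spinal libraries, against 154, 177, 166, 140.2 and 150.2 CPM in meningeal libraries. It was lower in every spinal library, with a difference of -0.91 ± 0.13 (SE; edgeR adjusted p = 1.1e-04), a member called lower in the comparison of cell types as well. Tuba1c was not called (-0.38 ± 0.24), although it was called lower in the ventral batches alone (-0.72 ± 0.22, edgeR adjusted p = 0.0296). Of the growth cone membrane proteins, Gap43 was at 44.7, 45.7, 95.3, 83.9 and 77.2 CPM in spinal libraries, against 49.6, 31.2, 51.3, 42.3 and 46.3 CPM in meningeal libraries, and spinal batches 1 and 2 lay within the meningeal range. It was called higher (0.65 ± 0.22, SE; edgeR adjusted p = 0.0269), but not in 5 of 10 fits that left out 1 library. Basp1 (0.69 ± 0.15) and Marcks (0.49 ± 0.19, edgeR adjusted p = 0.0479) were called higher and Marcksl1 was not (-0.08 ± 0.12). The Marcks call was lost in 8 of 10 fits that left out 1 library (edgeR adjusted p up to 0.135), with no filter on low counts (0.0573), paired by batch (0.0927) and in the whole-cord batches alone (0.06, edgeR adjusted p = 0.758).

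**Figure D5:**
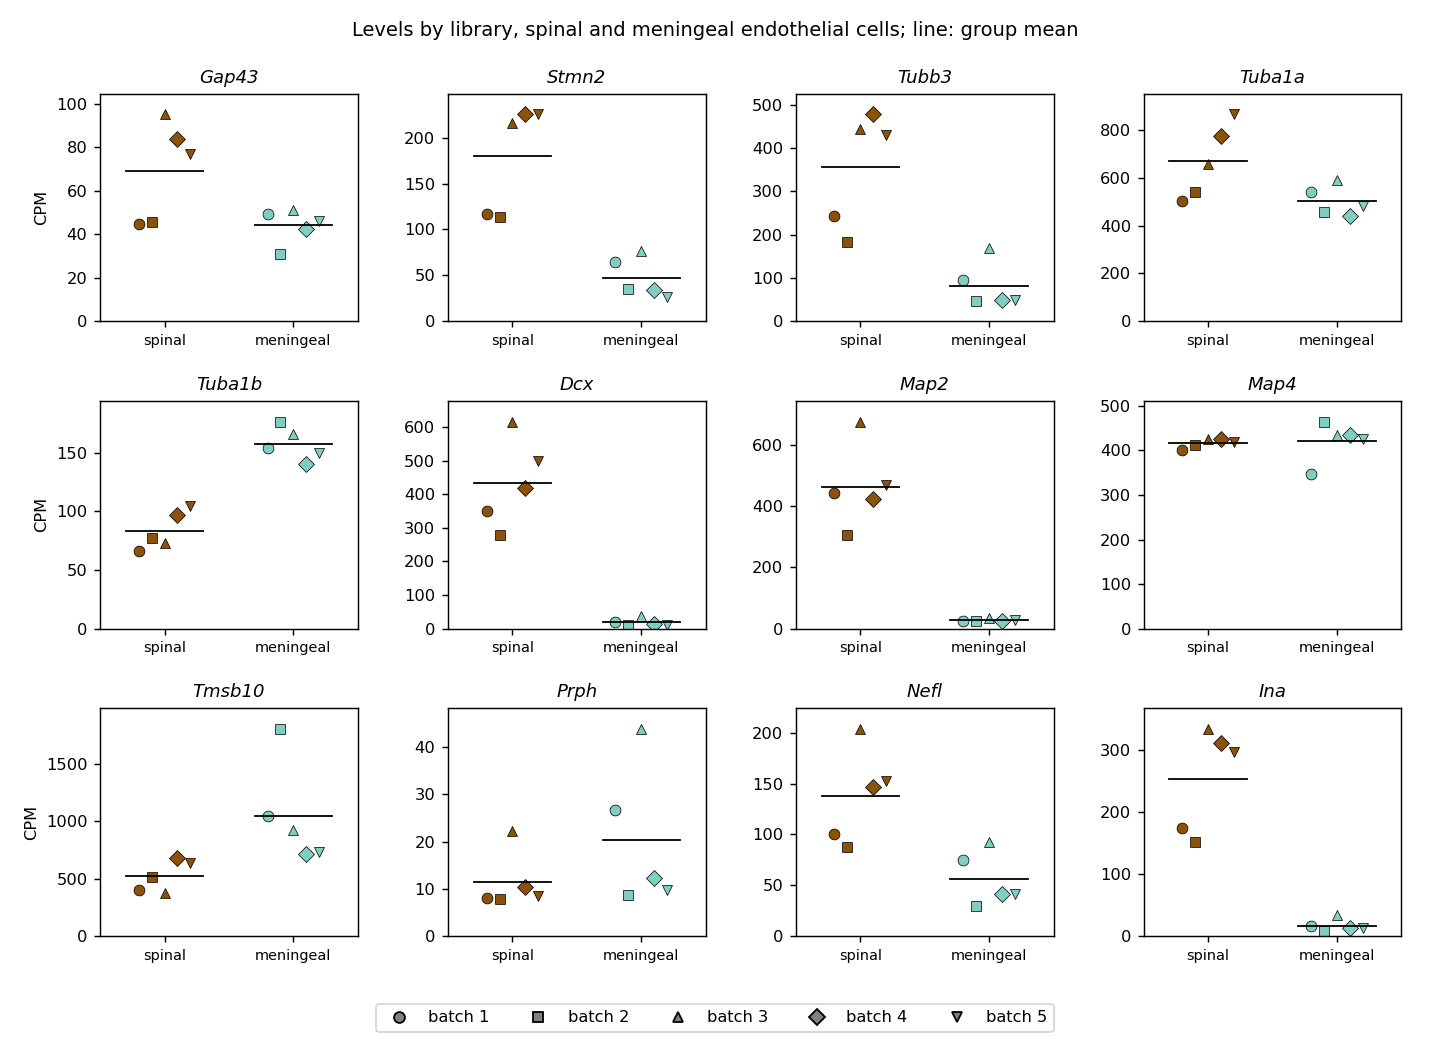
Level in CPM of 12 members in each spinal and meningeal endothelial library. Each point is 1 library, its shape gives the batch (spinal batches 1 to 3 ventral cord, 4 and 5 whole cord) and the line is the group mean. Dcx, Map2 and Ina are separated widely, while Map4, Prph and Gap43 overlap between the groups.

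Of the intermediate filament genes 4 were higher in spinal libraries and Prph did not pass. Ina was at 174, 151, 334, 311 and 297 CPM in spinal libraries, against 16.5, 8.29, 33.5, 12.6 and 12.4 CPM in meningeal libraries, a difference of 3.93 ± 0.38 (SE; edgeR adjusted p = 4.2e-06). Nefl was at 101, 87.2, 204, 147 and 152 CPM in spinal libraries, against 75.1, 29.5, 92.9, 40.9 and 41.5 CPM in meningeal libraries, and only meningeal batch 3 lay within the spinal range. Nefl differed by 1.30 ± 0.32 (SE; edgeR adjusted p = 0.0045), Nefm by 0.88 ± 0.32 and Nefh by 1.36 ± 0.52. The calls for Nefm and Nefh were lost in 7 and 8 of 10 fits that left out 1 library. In the ventral batches alone, Nefl, Nefm and Nefh did not pass (edgeR adjusted p = 0.119, 0.317 and 0.211). Prph was at 8.08, 7.88, 22.2, 10.5 and 8.39 CPM in spinal libraries, against 26.8, 8.68, 43.8, 12.3 and 9.66 CPM in meningeal libraries. Spinal batch 3 and meningeal batches 1 and 3 were high and the other libraries lower, and the difference was -0.82 ± 0.46 (SE; edgeR adjusted p = 0.163). Within each of the 5 batches Prph was lower in the spinal library, by log2 differences of -1.71, -0.14, -0.98, -0.23 and -0.20 in batches 1 to 5. Without spinal batch 3, Prph was called lower in spinal libraries (-1.24, edgeR adjusted p = 0.0409). Meningeal levels as a share of spinal ones were thus 6.58% for Ina and 177% for Prph, at a median of 40.2% over the 38 members, and 218% at the median of the 7 dorsal root ganglion neuron markers, whose part in the Prph values was not tested.

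Ina and Prph are both filament genes that were higher by 4.01 and 3.87 log2 units in wild-type motor neurons than in endothelial cells, and that had the highest and the lowest regional fold change of the 5 filament genes. The Prph difference between regions did not pass, and Ina was not tested against Prph. Their 250 bases upstream of the annotated start are shown as those of the 2 ends of this group, from RefSeq (GRCm38.p6), both on the plus strand: chr19:47014431-47014680 for Ina and chr15:99054924-99055173 for Prph. Capitals mark every match, on either strand, to 6 short motifs, whose letters and counts follow the sequences. In each window no match overlaps another.
Ina: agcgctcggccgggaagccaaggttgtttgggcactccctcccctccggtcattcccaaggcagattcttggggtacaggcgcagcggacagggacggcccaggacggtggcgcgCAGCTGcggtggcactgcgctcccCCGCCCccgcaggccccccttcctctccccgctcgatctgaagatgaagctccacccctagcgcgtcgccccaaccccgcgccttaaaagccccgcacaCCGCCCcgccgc
Prph: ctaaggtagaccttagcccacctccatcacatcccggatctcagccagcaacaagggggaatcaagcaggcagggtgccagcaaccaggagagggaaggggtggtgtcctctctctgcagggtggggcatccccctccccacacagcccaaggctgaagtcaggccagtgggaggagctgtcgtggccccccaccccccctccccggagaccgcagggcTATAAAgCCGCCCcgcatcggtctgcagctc

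The Ina window holds 1 CAGCTG, found in 13% of 32851 such windows, and 2 matches to GGGCGG, found in 32.7%. The Prph window holds 1 TATAAA, found in 12.4%, and 1 GGGCGG. Neither holds CAGATG (14.4% of windows), TAATTA (4.84%) or CCAAT (33.9%). The windows are 70.8% G and C for Ina and 65.2% for Prph, against a median of 52.4%. Of the 38 members, 23 had a sequence in this table. These are matches of letters and show no binding.

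Of the other cytoskeleton genes, 99 of 102 were tested between regions; 52 were higher in spinal libraries, 13 lower and 34 not called, with a median of 0.39. Among axonal adhesion molecules 9 of 11 were higher (median 2.39) and 2 lower, and among other microtubule binders 16 of 20 were higher (0.78). Other motors and adaptors had 14 of 21 higher (0.45), actin and growth cone genes 7 of 20 (0.21), and other tubulins and tubulin-handling genes 3 of 19 higher and 7 lower (-0.13). Chl1, an L1-family adhesion molecule, was at 93.6 ± 26.8 CPM in spinal libraries, against 2.1 ± 0.499 CPM in meningeal libraries (SD, n = 5 each), a difference of 5.48 ± 0.23 (SE; edgeR adjusted p = 6.4e-08). Its relative Nrcam differed by 3.11 ± 0.17 and Mtus1, which binds microtubules, by 1.39 ± 0.08. Alcam, an adhesion molecule of the immunoglobulin family, was lower, at 17.5 ± 4.97 CPM in spinal libraries, against 113 ± 17.3 CPM in meningeal libraries (-2.69 ± 0.20; edgeR adjusted p = 5.6e-07). The epithelial keratin Krt18 (-3.57 ± 0.40) and the contactin gene Cntn3 (-1.77 ± 0.28) were lower too.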

How the data were processed

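RNA of sorted cells was sequenced after poly(A) selection. Per the submitters' processing notes, the authors trimmed reads with Trimmomatic 0.39, aligned them with STAR 2.5.3a and counted them per gene with featureCounts 1.6.4; per the file headers, the deposited values are raw counts per gene on GRCm38 with GENCODE M22, unstranded and single-end in the knockout series and paired and reverse-stranded in the regional one. Levels were therefore not compared between the series, and TPM was computed from the deposited counts and gene lengths. Of 22 libraries 21 were used; 1 file, identical to another and naming that other library in its header, was left out.

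Genes were tested with edgeR 4.0.16 in R 4.3.3 (quasi-likelihood test, TMM scaling, filterByExpr with a minimum count of 10, Benjamini-Hochberg adjusted p under 0.05 over all genes tested). CPM was computed on TMM-scaled library sizes, and medians of fold changes are medians of the fitted log2 fold changes. Differences within a batch are on the log2 scale with a prior count of 2. Residual degrees of freedom were 7 for the cell types (11 libraries in 1 fit), 4 for knockout motor neurons, 3 for knockout endothelial cells and 8 for the regions. DESeq2 1.42.0, other scalings and filters, a batch block, leaving out each library and the dissections apart were alternatives. The labels number the batches across groups. Deviations of same-batch libraries correlated at 0.359 to 0.413 in motor neurons, 0.516 and 0.440 in endothelial cells, and -0.273 to 0.303 between regions.

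The members and gene lists were chosen with earlier results of these data known. Library values are given for Gap43, Stmn2, Tubb3, Tuba1a, Map4, Tmsb10, Prph and Nefl and for the 8 members with the smallest p in each comparison; other members are given by fold change. Sequences of the alpha tubulins are not reported here. Near-identical copies were sought with blastn 2.17.0+. The fitting code was tested on simulated data.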

Additional observations from a re-analysis of the deposited data

Results flagged for a closer look

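Of 76 sets of regional library values (38 members in 2 groups), 5 held a library far from the other 4 of its group, and chance alone would mark about 1 set in 20. Marcksl1 stood at 479.6 CPM and Tubb2a at 94.58 CPM in meningeal batch 2, Dpysl4 at 40.97 CPM and Kif1a at 62.36 CPM in meningeal batch 3, and Prph at 22.23 CPM in spinal batch 3. Without spinal batch 3, Prph was called lower in spinal libraries, as given above. Groups of 2 or 3 libraries, as in the knockout series, were too small for this check.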

How the results depend on the processing

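With edgeR, between the cell types 36 to 37 members were called in the knockout and 33 to 36 in wild type when 1 library was left out, and 27 to 30 of 38 between regions. For knockout against wild-type motor neurons, all genes called numbered 4 with DESeq2, 4 with no filter on low counts, 0 with a filter at 5 CPM and 6 with the replicate block (2 higher and 4 lower), and 0 to 1 when a library was left out, with 0 to 1 members called in those fits. For endothelial cells they numbered 34 with DESeq2, 2 with no filter and 180 with the replicate block, which called 1 member, and 0 to 1 when a library was left out. For the interaction, DESeq2 called 1 gene, and leaving out a library gave 0 to 1 genes and 0 to 1 members. Stmn1 between regions was 0.26 in batches 4 and 5 alone (edgeR adjusted p = 0.00897), against -0.15 over all batches. The causes were not tested. Pairing by batch ended the regional calls of Marcks and Map1a, added Tuba1c in endothelial cells and changed no other member's call. With 2 wild-type endothelial libraries, and pools of unstated size, small differences between genotypes could not be resolved. Large ones could be missed as well, since the main edgeR fit in endothelial cells did not call Plxnd1 itself.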

Other observations

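The low Tuba1c level of wild-type motor neuron batches 1 and 3 was set beside all other genes. Of 16695 genes tested in motor neurons, 2 had both of these libraries below each of the other 4 by a factor of more than 3, and Tuba1c was the 1 above 5 CPM. The pattern was chosen after the values were seen. The gene's neighbours did not show it: Lmbr1l was at 95.6, 95.7 and 86.4 CPM in knockout and 86.8, 94.9 and 87.1 CPM in wild-type motor neurons, and Spats2 at 109, 118 and 120 CPM in knockout and 110, 119 and 121 CPM in wild-type motor neurons.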
